A study of Mus musculus with 3 samples.

Results

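The data described here are the levels of 50 cell cycle and DNA replication genes in macrophages that were differentiated in culture from the bone marrow of C57BL/6J mice. The genes were chosen by symbol from textbook roles, and each of the 50 symbols matched 1 of the 55536 annotated genes of mouse build mm10, GENCODE release M21. They were sorted into 9 roles, from inhibitors of cyclin-dependent kinases to the machinery of mitosis. The study's cells had Lipid A, the part of bacterial endotoxin that the receptor TLR4 binds, at 100 ng/ml over 12 hours, then 12 hours of washout, and then 25 minutes of renewed Lipid A at 100 ng/ml. The RNA was that of the cytosolic fraction, 1 µg a library, with ribosomal RNA removed. Nuclear RNAs were still read: Malat1 averaged 793 ± 482 TPM and Rn7sk 74859 ± 23515 TPM. There was 1 group of 3 libraries, replicates 1 to 3, from separate biosamples under the same donor entry, so spreads between them may be partly technical. Sex and age of the animals were not collected. With 1 group there was no treated and untreated pair to compare, and an exact sign-flip test over 3 libraries cannot give a p below 0.25, so the values below are descriptions without tests.

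A cell that divides passes from G1, where D- and E-type cyclins with their kinases release E2F transcription factors from the Rb protein, through S phase, where licensed origins fire and DNA is copied, to mitosis, driven by Cdk1 with A- and B-type cyclins. Inhibitors such as p21, the product of Cdkn1a, and p27, the product of Cdkn1b, hold the kinases back. Macrophages grown from marrow divide under the growth factor Csf1, and endotoxin is known as a stimulus that stops this division. Many genes of the S phase carry E2F sites in their promoters, and many genes of mitosis carry a pair of elements named CHR and CCAAT box.

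The libraries held 55517261, 21311556 and 45635014 expected counts in replicates 1, 2 and 3. Levels are given in TPM, transcripts per 1000000, a unit that allows for gene length, as mean ± SD over the 3 libraries. Nuclear protein-coding genes took 29.6%, 40.4% and 34.8% of all TPM in the 3 libraries, so a TPM value is not on quite the same footing in each of them. Where libraries are set against each other, CPM is used, which here means counts per 1000000 counts of nuclear protein-coding genes. The labelled cell type was checked by its markers: all 8 macrophage markers were at or above 1 TPM in all 3 libraries, with Lyz2 at 3737 ± 895 TPM, Cd68 at 814 ± 140 TPM and Adgre1 at 806 ± 217 TPM. None of 8 marrow progenitor markers, 6 erythroid markers, 8 lymphoid markers and 6 stromal markers reached 1 TPM in all 3 libraries. Of the neutrophil markers, S100a9 at 6.82 ± 2.99 TPM and S100a8 at 3.89 ± 0.475 TPM did. Ngp, a protein of neutrophil granules, had 0.67, 3.5 and 0.57 TPM, highest in replicate 2, while Ly6g, the defining marker of mature neutrophils, was at 0 in every library. The 7 neutrophil markers summed to 6.28, 10.8 and 5.38 CPM in replicates 1, 2 and 3.

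Of the 50 genes, 32, or 64%, had at least 1 TPM in all 3 libraries, against 42.1% of the 22015 nuclear protein-coding genes (9275 genes). A further 5 reached that limit in 1 or 2 libraries and 13 in none. Their median level was 2.72 ± 0.651 TPM, beside 0.187 ± 0.0321 TPM for all nuclear protein-coding genes and 9.90 ± 1.46 TPM for the 9275 at the limit. Thus the median of the cell cycle genes lay above that of all protein-coding genes and below that of the expressed ones. Means ran from 102 TPM for Cdkn1a to 0.117 TPM for Cenpf, with 9 genes at 10 TPM or more, 25 between 1 and 10 TPM and 16 below 1 TPM. Cdkn1a and Pcna together made up 43.2% of the summed mean TPM of the 50 genes. They were the 2 members among the top 10% of expressed protein-coding genes. In the second deposited quantification, made directly from the reads, 18 of the 50 genes (36%) and 31.1% of protein-coding genes reached 1 TPM in all libraries. In that table protein-coding genes took 20.5%, 21.4% and 7.95% of TPM. Rescaled so that nuclear protein-coding genes sum to 1000000, 40 of the 50 genes (80%) passed in either table, against 46.4% of protein-coding genes in the gene table and 47.1% in the read-based one. The 50 genes took 0.121%, 0.125% and 0.113% of protein-coding TPM in replicates 1, 2 and 3 of the gene table. The read-based shares were 0.118%, 0.122% and 0.112%. In bulk RNA, the share of cycling cells and the RNA per cycling cell cannot be told apart.

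**Figure D1:**
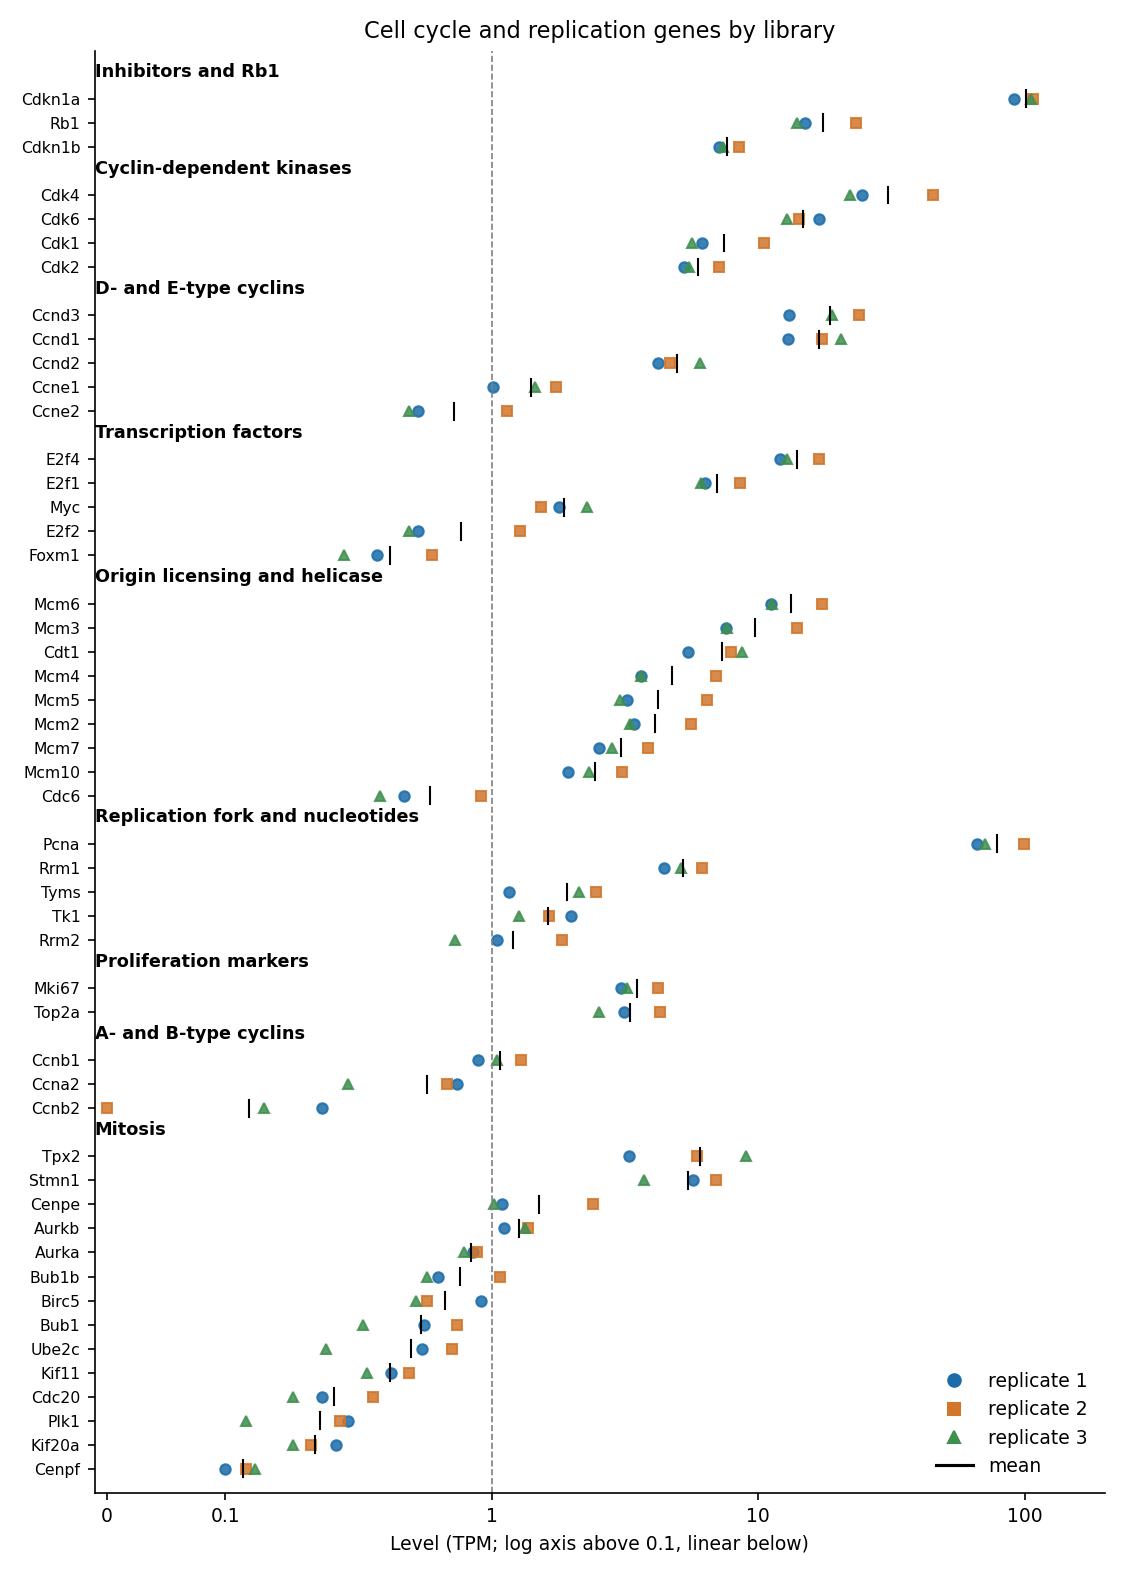
Level of each of the 50 genes in TPM (x axis, log above 0.1 and linear below) in replicates 1, 2 and 3 (symbols), with the mean as a black bar, grouped by role and ordered by mean within a role. The dashed line marks 1 TPM. Cdkn1a and Pcna stand at the right at 102 and 79.1 TPM, and 10 of the 14 mitosis genes have means left of the line. Of all 22015 nuclear protein-coding genes, not drawn here, 12411 have means below 1 TPM.

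The inhibitors and Rb1 had the highest median of the 9 roles, 17.5 ± 5.15 TPM, and all 3 genes were at the limit. Cdkn1a (chr17:29090976-29100727, plus strand), which encodes the p21 inhibitor and is a target of p53, had 91.1, 108 and 106 TPM in replicates 1, 2 and 3. The values rested on 13625, 4807 and 11654 counts, and the 3 libraries lay within 1.17-fold of each other in CPM. Rb1, which encodes the retinoblastoma protein that binds E2F factors, had 15, 23.4 and 14.1 TPM. Cdkn1b, the p27 inhibitor, had 7.11, 8.48 and 7.36 TPM. Cdkn1a was above Cdkn1b in each library, by 12.8, 12.7 and 14.4-fold in TPM.

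All 4 kinase genes were at the limit, with a median of 11.1 ± 1.64 TPM. Cdk4 and Cdk6 encode the partners of D-type cyclins. Cdk4 had 24.6, 45.5 and 22.2 TPM, with replicate 2 apart from the other two. In CPM, which does not depend on which transcript the reads are given to, the Cdk4 values were 78.1, 60.3 and 60.3, and replicate 2 was not the highest. Cdk6 had 17, 14.3 and 12.9 TPM, and its CPM of 265, 169 and 178 was highest in replicate 1. Cdk1, the kinase of mitosis, had 6.18, 10.6 and 5.63 TPM from 408, 182 and 262 counts. Cdk2, the partner of cyclins E and A, averaged 5.97 ± 0.999 TPM.

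The 32 genes at the limit had a median of 88.5% of their TPM in the leading transcript, against 80.2% for the 9275 expressed protein-coding genes. Transcripts that the annotation classes as retained intron took 25% or more of the TPM in 5 of the 32 genes (15.6%) and in 5.02% of the 9275. These 5 were Cdk4, Cdk1, Mcm3, Mcm10 and Tk1. In the read-based table it was also 5 of 32 (15.6%), against 6.59%. Cdk4 passed 25% through replicate 2 alone, with 10.9%, 53.2% and 8.53% of its TPM in such transcripts. Without replicate 2 the count was 4 of 32 (12.5%), against 5% of protein-coding genes, in the gene table. Without it the read-based count was 3 of 32 (9.38%), against 7.7%, which is near the background. For Cdk4, the full-length Cdk4-201 of 2053 bases had nearly level values of 21.5, 20.3 and 19.6 TPM. The short Cdk4-209 of 468 bases had 1.49, 23.7 and 1.26 TPM from 33.3, 150 and 21.9 expected counts, so the high gene level of replicate 2 stands in the short transcript. The read-based table gave Cdk4-209 0.833, 14.2 and 0.343 TPM, with replicate 2 again apart. Of the 468 bases, 443 (94.7%) lie inside exons of Cdk4-201, and the bases that set the short transcript apart are few. The longest stretches of 3 such transcripts outside the exons of the main transcript are printed here, since the split between transcripts depends on such bases. Cdk4-209 and Mcm3-205 each have only the printed stretch outside. Cdk1-204 has 63 bases outside in 2 runs, of which only the longer run, of 56 bases, is printed. The printed stretches are thus not all that sets Cdk1-204 apart. The stretches are from GENCODE M21 transcripts on mm10, 5′ to 3′ on the strand of the gene. Capitals mark the dinucleotides of the intron borders, GT at its start or AG at its end.
Cdk4-209, chr10:127066076-127066100, plus strand: taacagagttgtcctgtccccacAG
Cdk1-204, chr10:69345005-69345060, minus strand: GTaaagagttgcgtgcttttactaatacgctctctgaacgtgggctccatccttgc
Mcm3-205, chr1:20804908-20804933, minus strand: cccctgcaaacgctgtctccctgaAG
The stretches of Cdk4-209 and Mcm3-205 end at the 3′ border of an intron, and that of Cdk1-204 begins at the 5′ border of one. Cdk1-202, the main transcript, had 3.08, 4.01 and 2.84 TPM and Cdk1-204 (475 bases, retained intron) had 2.84, 2.2 and 2.57 TPM. Cdk1-207, of 695 bases and classed as protein-coding, had 0.07, 4.3 and 0.11 TPM, with replicate 2 apart. The read-based table gave Cdk1-207 0.866, 1.97 and 0.172 TPM, so there replicate 2 was the highest by less and replicate 1 was not near 0. Mcm3-201 had 4.59, 8.27 and 4.6 TPM and the retained-intron Mcm3-205 of 607 bases had 1.22, 5.71 and 1.71 TPM. Replicate 2 has the fewest counts of the 3 libraries, and the part of depth in these splits was not tested.

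**Figure D2:**
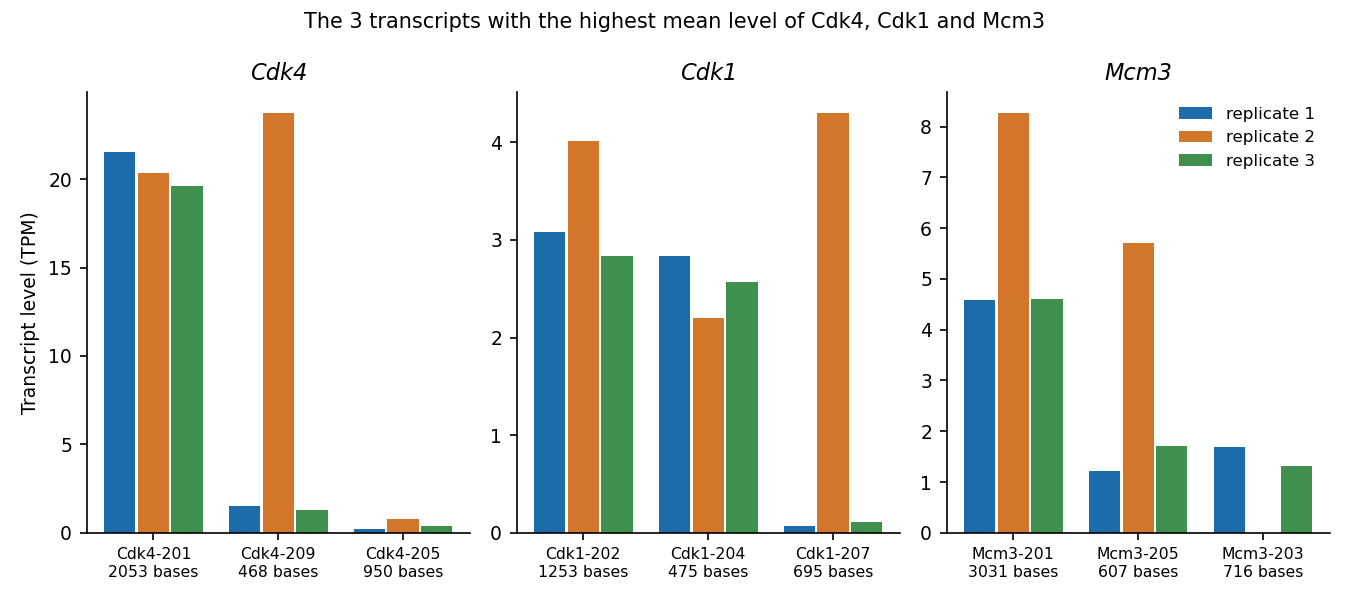
Level in TPM (y axis) of the 3 transcripts of Cdk4, Cdk1 and Mcm3 with the highest mean, with bars for replicates 1, 2 and 3 and the transcript length under each name. Cdk4-201 is level at 19.6 to 21.5 TPM, while Cdk4-209 is at 23.7 TPM in replicate 2 and under 1.5 TPM in the others.

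Of the D- and E-type cyclins, 4 of 5 were at the limit, and the median was 4.98 ± 0.951 TPM. Ccnd3 had 13.1, 23.9 and 19 TPM. Ccnd1 had 12.9, 17.4 and 20.5 TPM. These 2 D-type cyclins were not ordered: the ratio of Ccnd3 to Ccnd1 was 1.01, 1.37 and 0.927 in replicates 1, 2 and 3. Ccnd2 had 4.23, 4.66 and 6.05 TPM and was below both in every library. In posterior mean TPM it was much closer to them in replicate 3, at 16.18 beside 20.25 for Ccnd1 and 19.93 for Ccnd3. The E-type cyclins, which act with Cdk2 at the start of S phase, were lower. Ccne1 averaged 1.40 ± 0.372 TPM and Ccne2 averaged 0.720 ± 0.364 TPM.

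Of the transcription factors, 3 of 5 were at the limit, with a median of 1.87 ± 0.381 TPM. E2f4, the E2F member known chiefly as a partner of repressor complexes in resting cells, had 12.1, 16.9 and 12.9 TPM. E2f1, an activator of S phase genes, had 6.31, 8.55 and 6.13 TPM. E2f4 exceeded E2f1 1.92, 1.97 and 2.1-fold in the 3 libraries. Myc, a driver of cell growth, had 1.79, 1.53 and 2.28 TPM, and E2f2 averaged 0.767 ± 0.445 TPM. In replicate 2, 0.74 of the 1.28 TPM of E2f2 was in the short E2f2-202, from 3.89 expected counts. In CPM E2f2 had 4.51, 3.47 and 3.55, lowest in replicate 2. Foxm1, which activates genes of mitosis, averaged 0.417 ± 0.165 TPM and reached 1 TPM in no library. The wider set of 14 pocket protein, E2F and DREAM complex genes, the DREAM complex being the repressor that holds cell cycle genes silent in resting cells, had 11 at the limit. Its highest members were Rbl1 at 12.6 ± 3.67 TPM, Lin37 at 11.4 ± 0.917 TPM and Rbl2 at 10.8 ± 4.22 TPM.

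Of the licensing genes, which load the Mcm helicase onto origins before S phase, 8 of 9 were at the limit, with a median of 4.37 ± 1.76 TPM. Mcm6 had 11.2, 17.3 and 11.3 TPM. Mcm3 had 7.56, 14 and 7.65 TPM. Cdt1, which brings the helicase to the origin, had 5.44, 7.91 and 8.69 TPM. The products of Mcm2 to Mcm7 form 1 ring-shaped helicase, yet their RNA levels were unequal: Mcm4 averaged 4.75 ± 1.91 TPM, Mcm5 4.22 ± 1.90 TPM, Mcm2 4.10 ± 1.29 TPM and Mcm7 3.07 ± 0.694 TPM. Mcm6 was the highest and Mcm7 the lowest of the 6 in each library, and Mcm6 exceeded Mcm7 4.43, 4.5 and 4-fold. In replicate 3 the lowest place was close: Mcm7 had 2.82 TPM and Mcm5 3.03 TPM. In posterior mean TPM Mcm5 was the lower there, at 3.11 beside 3.14 for Mcm7. Mcm10, a firing factor, averaged 2.45 ± 0.584 TPM. Cdc6, the loader that works with Cdt1, was the lowest of the role at 0.587 ± 0.284 TPM and under 1 TPM in every library. The ratio of Cdt1 to Cdc6 was 11.6, 8.69 and 22.9.

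Promoter windows of 250 bases before the RefSeq start (GRCm38.p6, the mm10 build) were found for 37 of the 50 genes, 41 windows in all. Not every window lies upstream of the transcript in use: 18 of the 41 hold bases of the gene's own annotated exons, 2 of them, of E2f1 and Mcm7, lie wholly in such exons, and 4 belong to a RefSeq start over 1000 bases from that of the leading transcript. All 41 were searched on both strands for 3 kinds of motif, of which no different ones overlapped. The E2F motifs TTTCCCGC and TTTGGCGC were in 5 of the 41 windows (12.2%) and in 1.73% of 20150 windows of protein-coding genes. By role they were in 4 of 9 windows of the licensing genes, in 0 of 5 of the fork and nucleotide genes, which makes 4 of 14 for the replication roles together, in 0 of 14 of the mitotic roles and in 1 of 13 of the other roles. The licensing match of Mcm7 is in the window inside exons. Over the 35 windows that are neither wholly in exons nor over 1000 bases away, a restriction chosen after seeing the data, 4 held an E2F motif, and 3 of these were among the 7 licensing windows left. Windows of Mcm6 and Mcm5 are shown because the licensing genes held most of these matches. They are printed 5′ to 3′ on the strand of the gene, with E2F motifs and CCAAT boxes in capitals on either strand.
Mcm6, chr1:128359706-128359955, minus strand: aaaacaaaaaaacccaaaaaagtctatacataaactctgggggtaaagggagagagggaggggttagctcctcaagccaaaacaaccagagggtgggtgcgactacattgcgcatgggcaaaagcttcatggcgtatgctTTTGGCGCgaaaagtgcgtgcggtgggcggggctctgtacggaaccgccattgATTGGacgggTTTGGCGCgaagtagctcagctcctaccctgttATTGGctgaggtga
Mcm5, chr8:75109259-75109508, plus strand: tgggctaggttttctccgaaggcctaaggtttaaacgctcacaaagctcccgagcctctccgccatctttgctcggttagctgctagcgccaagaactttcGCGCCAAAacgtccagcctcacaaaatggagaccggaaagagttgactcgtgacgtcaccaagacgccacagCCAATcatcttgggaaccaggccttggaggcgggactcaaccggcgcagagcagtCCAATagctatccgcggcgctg
In Mcm6 the E2F motif begins 110 and 47 bases before the start, and CCAAT boxes begin 57 and 14 bases before it. In Mcm5 the E2F motif begins 149 bases before the start, with CCAAT boxes at 77 and 22 bases. A match is a description of these letters and no evidence of binding. Stmn1, Aurkb, Ccne2, Mcm4, Ccna2, Ccnd2, E2f4, Tpx2, Ccnd1, Rb1, Foxm1, Myc and Kif20a had no entry.

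At the replication fork, Pcna (chr2:132249162-132253314, minus strand), the sliding clamp of the DNA polymerases, had 66.2, 99.8 and 71.3 TPM, and in CPM the 3 libraries, at 161, 176 and 150, lay within 1.17-fold. The other 4 genes of this role, which make nucleotides, were far lower, and the role's median was 2.2 ± 0.247 TPM with 4 of 5 genes at the limit. Rrm1, the large subunit of ribonucleotide reductase, had 4.45, 6.14 and 5.15 TPM. Its small S phase subunit Rrm2 averaged 1.21 ± 0.571 TPM, and Rrm1 exceeded it 4.24, 3.34 and 7.05-fold. Tyms, thymidylate synthase, had 1.16, 2.47 and 2.13 TPM, of which 70.1% was given to Tyms-205, a transcript of the nonsense-mediated decay class whose 618 bases all lie inside exons of Tyms-201. Tyms-201 had 0.18, 0.29 and 0.15 TPM, so the place of Tyms at the limit rests on the short Tyms-205. In the read-based table the share of Tyms-205 was 53.8%. In CPM Tyms was nearly level, at 2.38, 2.4 and 2.12. Tk1, thymidine kinase, averaged 1.63 ± 0.36 TPM, and 50.9% of that was in retained-intron transcripts.

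Of 32 further replication genes, 25 were at the limit in all 3 libraries and the median was 3.27 ± 0.315 TPM. The highest were the clamp loader subunits Rfc2, at 34.7 ± 8.48 TPM, and Rfc1, at 17 ± 3.92 TPM, and the single-strand binding protein Rpa1, at 15.5 ± 4.73 TPM. Orc1 at 0.293 ± 0.153 TPM, Cdc7 at 0.5 ± 0.108 TPM and Cdc45 at 0.653 ± 0.215 TPM were under 1 TPM in every library, while the origin subunit Orc4 stood at 13 ± 0.959 TPM. These 4 were named after their values were seen.

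The proliferation markers Mki67, which encodes Ki-67, and Top2a, a topoisomerase, were both at the limit, with a median of 3.41 ± 0.735 TPM. Mki67 had 3.06, 4.23 and 3.22 TPM from 2722, 1058 and 1930 counts. Top2a had 3.15, 4.27 and 2.54 TPM. Their levels were close in each library, with a ratio of Mki67 to Top2a of 0.971, 0.991 and 1.27.

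Of the A- and B-type cyclins, 0 of 3 were at the limit in all libraries. Ccnb1 had 0.89, 1.29 and 1.05 TPM and Ccna2 had 0.74, 0.68 and 0.29 TPM. Ccnb2 had 27, 0 and 12 counts. The exact 95% Poisson interval was 17.8 to 39.3 in replicate 1 and 6.2 to 21 in replicate 3, for counting error only. Its count of 0 in replicate 2 allows up to 0.153 CPM, the worth of 3 counts there, so its absence from that library is not shown. The exact 95% Poisson interval used for the other libraries would allow 3.69 counts. Replicates 1 and 3 had 0.563 and 0.296 CPM.

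Of the 14 mitosis genes, 4 were at the limit in all 3 libraries and 10 had means below 1 TPM, and the median was 0.583 ± 0.148 TPM. Of the 22015 nuclear protein-coding genes, 42.1% were at the limit and 12411 had means below 1 TPM. The mitosis median lay above their median of 0.187 TPM. Tpx2, a spindle assembly factor that activates Aurora A, had 3.27, 5.88 and 9.04 TPM. Stmn1, a microtubule-binding protein that is not restricted to dividing cells, had 5.68, 6.95 and 3.72 TPM. Cenpe, a kinetochore motor, had 1.09, 2.4 and 1.02 TPM. In replicate 2, 0.7 TPM of this was in the retained-intron Cenpe-202, from 9.62 expected counts. The read-based table gave that transcript 0.0262 TPM there. In CPM Cenpe had 14.5, 16.9 and 12.6. These 3 genes did not move together, since replicate 3 was the highest for Tpx2 and the lowest for Stmn1 and Cenpe. Aurkb, the Aurora B kinase, averaged 1.27 ± 0.14 TPM, and Aurka averaged 0.84 ± 0.0458 TPM. Below them came the spindle checkpoint kinases Bub1b at 0.760 ± 0.279 TPM and Bub1 at 0.543 ± 0.206 TPM. Survivin, from Birc5, averaged 0.667 ± 0.212 TPM. Ube2c and Cdc20, which work with the anaphase-promoting complex, averaged 0.5 ± 0.239 TPM and 0.257 ± 0.0929 TPM. The motor Kif11 had 0.417 ± 0.0751 TPM, Plk1, a kinase of mitotic entry, 0.227 ± 0.0929 TPM, the motor Kif20a 0.217 ± 0.0404 TPM and the kinetochore protein Cenpf 0.117 ± 0.0153 TPM. Tpx2 was out of step with its partner Aurka, which it exceeded 3.85, 6.68 and 11.4-fold.

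In a list of 25 further mitosis genes, 14 were at the limit, with a median of 1.69 ± 0.245 TPM. Its highest members were Pttg1, which encodes securin, at 44.5 ± 9.97 TPM, Incenp, of the Aurora B complex, at 13 ± 2.32 TPM and Cdc27, of the anaphase-promoting complex, at 11.5 ± 2.37 TPM. A list of 12 p53 target and antiproliferative genes, chosen with the level of Cdkn1a known, had 11 at the limit and a median of 20 ± 0.805 TPM. Its highest were Gadd45b at 97.2 ± 37.5 TPM, Ccng1 at 54 ± 7.65 TPM and Plk2 at 39.3 ± 9.53 TPM. Of 17 further regulators of the kinases, 12 were at the limit, led by Ccnh at 6.91 ± 0.681 TPM, Cdk7 at 6.40 ± 0.969 TPM and Fbxw7 at 6.00 ± 0.252 TPM.

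**Figure D3:**
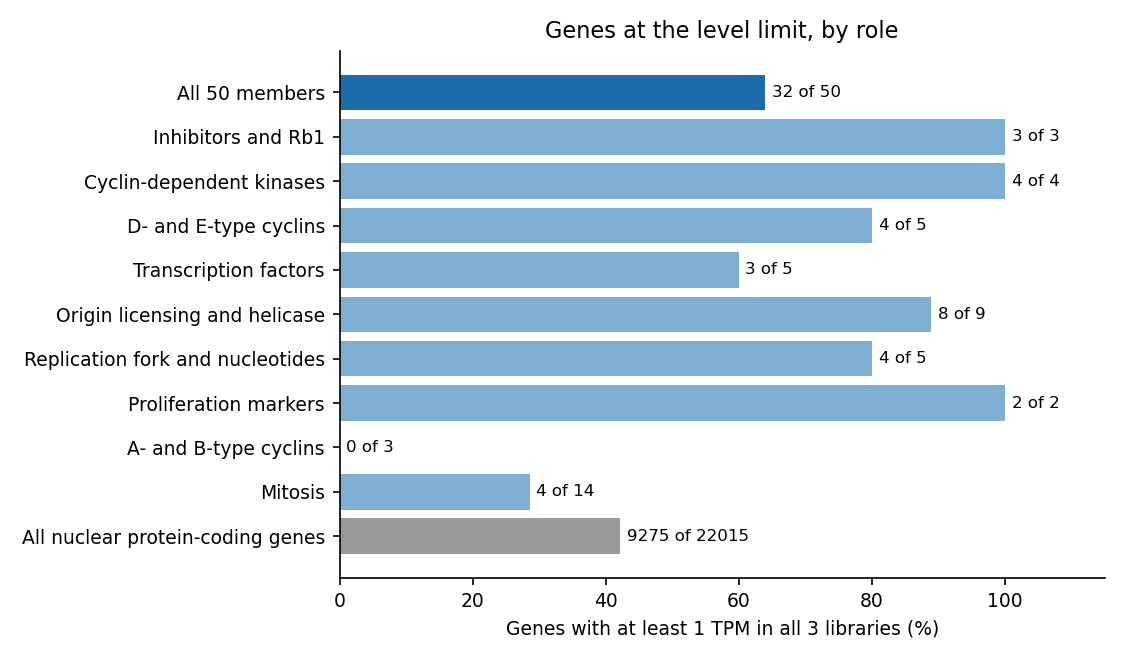
Percent of genes with at least 1 TPM in all 3 libraries (x axis, from 0) for the 50 genes, each of the 9 roles and all nuclear protein-coding genes, with the counts beside each bar. All inhibitors, kinases and proliferation markers pass, 4 of 14 mitosis genes and 0 of 3 A- and B-type cyclins do, and 42.1% of protein-coding genes do.

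The CHR motifs TTTGAA and TTCGAA were in 11 of the 41 promoter windows (26.8%) and in 15.2% of the 20150 windows of protein-coding genes, and the CCAAT box was in 29 (70.7%) and in 35%. Both were present in 11 windows of the 50 genes (26.8%) and in 5.62% of protein-coding windows. In the mitotic roles, taken as mitosis, A- and B-type cyclins and proliferation markers, 7 of 14 windows held both and 13 of 14 held a CCAAT box. In the replication roles, 2 of 14 held both and 10 of 14 a CCAAT box. Over the 35 restricted windows, 9 held both, 7 of 14 in the mitotic roles and 1 of 12 in the replication roles. The windows of Top2a and Cdk1 are shown because both elements recur in them, with CHR motifs and CCAAT boxes in capitals on either strand.
Top2a, chr11:99024190-99024439, minus strand: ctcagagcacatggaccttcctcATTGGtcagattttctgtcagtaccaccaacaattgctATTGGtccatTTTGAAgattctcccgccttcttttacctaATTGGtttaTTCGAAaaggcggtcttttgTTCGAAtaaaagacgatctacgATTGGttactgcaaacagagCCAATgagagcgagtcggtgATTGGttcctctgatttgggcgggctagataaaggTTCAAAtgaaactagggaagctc
Cdk1, chr10:69352913-69353162, minus strand: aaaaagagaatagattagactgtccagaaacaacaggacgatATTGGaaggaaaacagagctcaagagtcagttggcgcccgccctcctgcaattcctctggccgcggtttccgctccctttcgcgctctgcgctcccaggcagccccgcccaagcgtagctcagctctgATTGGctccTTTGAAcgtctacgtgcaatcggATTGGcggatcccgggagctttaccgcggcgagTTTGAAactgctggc
In Cdk1 the CHR motif begins 71 and 15 bases before the RefSeq start and CCAAT boxes begin 208, 80 and 48 bases before it. In Top2a, CHR motifs begin 179, 140, 120 and 23 bases before the start. These 2 genes averaged 3.32 ± 0.877 TPM for Top2a and 7.45 ± 2.70 TPM for Cdk1, while Ccnb2 and Cdc20, whose windows also hold both elements, averaged 0.123 ± 0.116 TPM and 0.257 ± 0.0929 TPM. The presence of both elements thus went with levels that differed widely.

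Between libraries, the 34 genes whose mean TPM was 1 or more had a median ratio of highest to lowest CPM of 1.34, beside 1.27 for the 9604 protein-coding genes at that mean. The median coefficient of variation was 15.1%, beside 12.3%, and counting error alone gives a median of 3.72% for the 34. E2f4 varied least, at 1.09-fold, and 3 of the 34 genes, Tpx2, Tk1 and Rrm2, varied over 2-fold, beside 4.54% of the 9604. Tpx2 had 21, 26.8 and 48.7 CPM, and replicate 3 was apart. Tk1 had 4.34, 2.76 and 2.02 CPM and Rrm2 had 3.76, 4.96 and 2.32 CPM, with replicate 3 lowest in both. Neighbours in the order of mean TPM mostly did not keep their order: in 13 of 49 adjacent pairs the upper gene was higher in all 3 libraries.

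On the log2 scale of CPM with 0.1 added, each library was set against the mean of the other 2. The 3 differences of a gene are thus tied, since a rise in 1 library lowers the differences of the others. They are not separate observations. The licensing genes were higher in replicate 2, by a median of 0.40 over 8 genes with 7 higher. The median of all protein-coding genes in that library was -0.02, over 9604 genes. Replicate 3 had the reverse, with a median of -0.37 and 6 of 8 genes lower, beside -0.09 for all protein-coding genes. Mcm5, at 15.3, 22 and 12.3 CPM, and Mcm4, at 22.7, 32 and 19.8 CPM, show this most plainly, while Cdt1, at 20.5, 21.6 and 28 CPM, went the other way. Over all 34 genes the median of replicate 3 was -0.23, with 24 lower, that of replicate 2 was 0.15, with 23 higher, and that of replicate 1 was 0.03. Most protein-coding genes were lower in replicate 3 as well, 6184 of the 9604. In replicate 2, 4499 of the 9604 were higher. The D- and E-type cyclins lay instead above the mean of the other libraries in replicate 3. Their median was 0.29 with 4 of 4 higher, beside 3420 of the 9604 protein-coding genes. Ccnd1, at 84, 82.7 and 114 CPM, and Ccnd2, at 46.6, 34.5 and 57.2 CPM, were highest in that library. Ccnd3, at 40.6, 54.4 and 48.8 CPM, and Ccne1, at 3.38, 4.24 and 4.17 CPM, were highest in replicate 2. In TPM as deposited the median of all protein-coding genes itself moved to -0.26, 0.33 and -0.12 in replicates 1, 2 and 3, and that of the 34 genes to -0.35, 0.49 and -0.17. Other RNAs moved with the libraries too. Of 6 nuclear RNAs 4 were at 1 TPM or more in every library and Meg3 was at 0, and the 6 summed to 27727, 17450 and 12204 CPM. In CPM, Malat1 had 8329, 3480 and 1444, Neat1 924, 212 and 152, Xist 803, 42.3 and 23.1, and Kcnq1ot1 93.5, 3.37 and 2.66. These 4 RNAs were thus several-fold higher in replicate 1 than in replicate 3, and for all but Malat1 replicate 1 stood apart from both other libraries. Rn7sk, which held most of the sum of the 6, differed less between replicates 1 and 3, so the several-fold difference does not hold for all listed nuclear RNAs. In replicate 2, where the licensing genes were higher, the 7 listed neutrophil markers summed highest too, at 6.28, 10.8 and 5.38 CPM in replicates 1, 2 and 3. That rise lay in Ngp, at 1.27, 4.75 and 0.937 CPM, and S100a9, at 2.77, 3.93 and 2.56 CPM. Without Ngp and S100a9, the sum of the list was not highest in replicate 2. Of the 7 listed neutrophil markers, 2 had no counts in any library, so Ngp and S100a9 do not stand for the whole list. The part of nuclear RNA and of these markers in the differences was not tested.

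**Figure D4:**
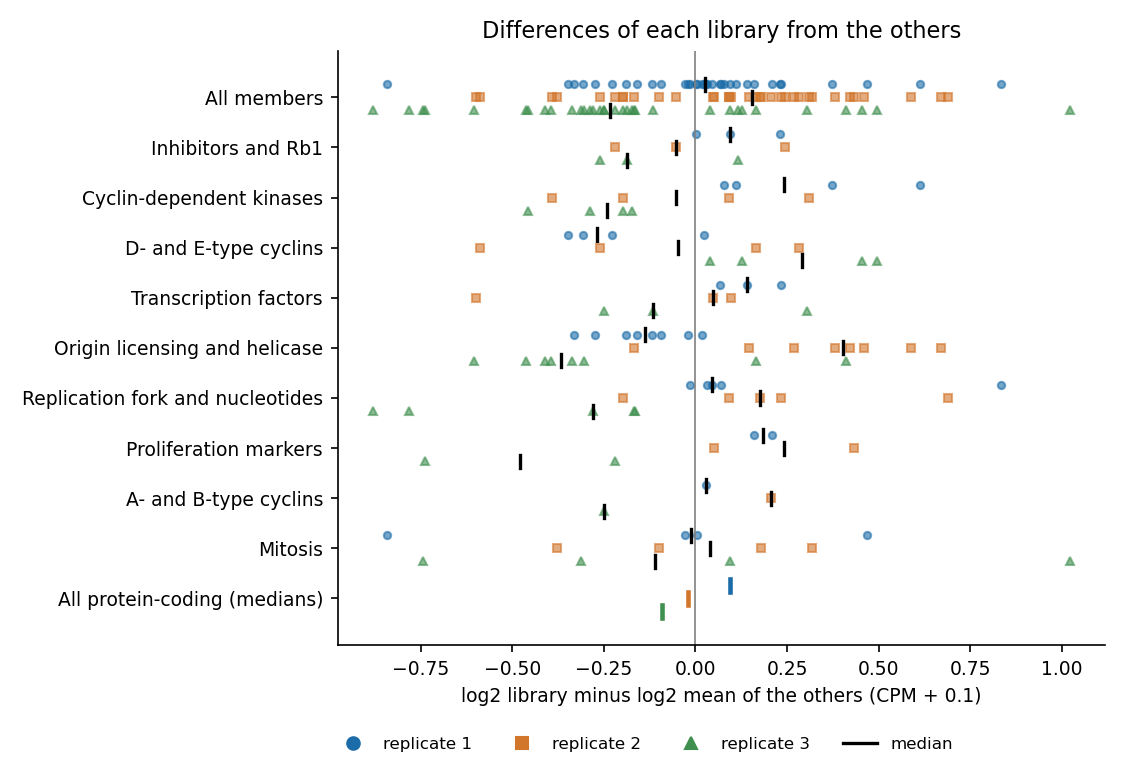
Difference of each library from the mean of the others on the log2 scale of CPM with 0.1 added (x axis) for the 34 genes whose mean TPM was 1 or more, by role, with points for genes, coloured by replicate, and black bars for medians. The lowest row gives the medians of all nuclear protein-coding genes as coloured bars. Licensing genes lie to the right in replicate 2 (median 0.40) and to the left in replicate 3 (median -0.37).

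How counting was done bears on some of these genes. Of the 50, 13 had counts that were not whole numbers, so some of their reads were shared with other genes. The use of strand in counting is not given in the sources used here. Of the 50, 16 share exon bases with a gene on the opposite strand, 6 of them over at least 10% of their exon bases. How many of all protein-coding genes have such counts or overlaps is not given here, so these counts do not set the 50 apart. Cdk4 shares 641 bases (19.7%) with Tspan31, which had 33.7, 47.1 and 39.5 TPM, and the short Cdk4-209 lies outside that overlap. Ccnd1 shares 1100 bases (23.4%) with LTO1, at 10.2 ± 2.18 TPM. Kif20a shares 1271 bases (29.3%) with Cdc23, at 5.67 ± 2.15 TPM, so the low Kif20a value is uncertain. Across the 50 genes the 2 deposited quantifications ranked levels nearly alike, with Spearman's rho of 0.99, 0.987 and 0.998 across genes in replicates 1, 2 and 3. These genes share each library and are not independent.

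**Figure D5:**
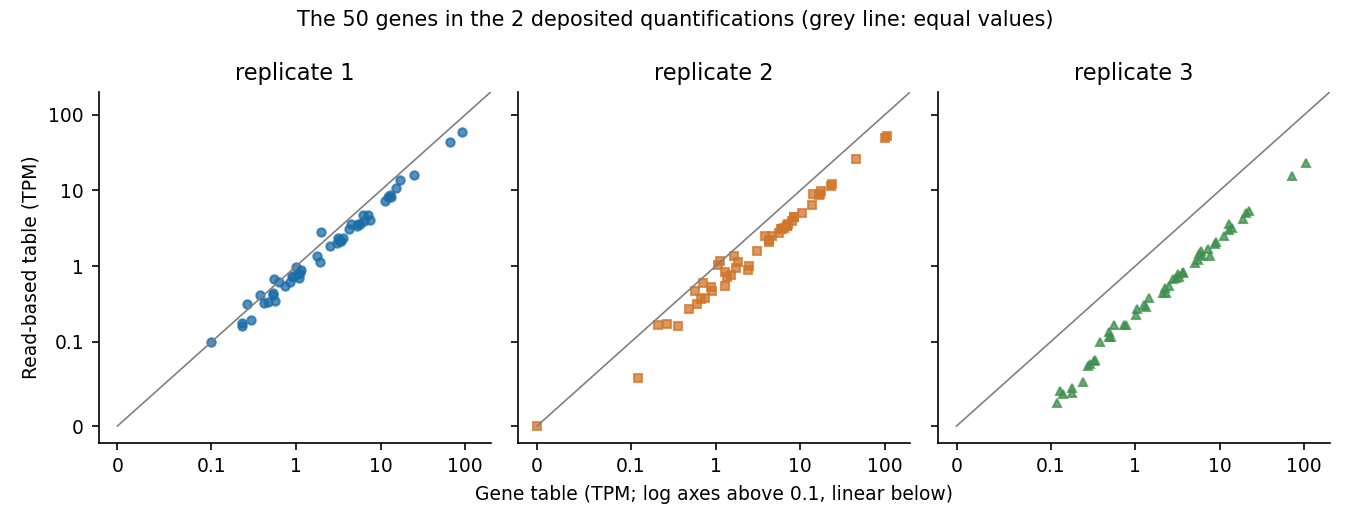
Level of each of the 50 genes in the gene table (x axis) and in the read-based table (y axis), both in TPM on log axes that are linear below 0.1, in replicates 1, 2 and 3. Nearly all points lie below the grey line of equal values, furthest in replicate 3, where protein-coding genes take 7.95% of read-based TPM and Cdkn1a reads 23.4 TPM in place of 106 TPM.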

How the data were processed

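The deposited files of 3 libraries were used. Per the file headers, the authors deposited expected counts and TPM per gene and per transcript, and in a second transcript table estimated counts and TPM made from the reads; the bounds that the first table gives beside TPM were not used. Per the deposited description files, the build is mm10 with GENCODE M21. Which programs made the tables is not given in the sources used here. Genes were matched by symbol, and read-based TPM were summed over the transcripts of a gene. CPM are expected counts divided by those of nuclear protein-coding genes, times 1000000. Library differences used an offset of 0.1 CPM, which understates differences of low genes, and genes whose mean TPM was 1 or more. Both statistics were tested on simulated data. TMM factors came from edgeR 4.0.16 in R 4.3.3, and other steps used Python 3.11.15, pandas 2.3.3, numpy 2.4.6, scipy 1.17.1 and matplotlib 3.10.9. No test between groups was possible with 1 group.

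All 50 genes are named, with values by library for the 3 highest of each role, and from the other lists the 3 highest by mean TPM. A rule for genes over 3-fold apart between libraries picked none. The genes, lists and motifs were chosen with earlier results of these data known. Sequences are from RefSeq promoter windows and GENCODE transcripts. A count of 0 in a library leaves room for 3 counts, worth 0.0626 CPM in replicate 1, 0.153 CPM in replicate 2 and 0.0740 CPM in replicate 3. Intervals and this limit cover counting error only.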

Additional observations from a re-analysis of the deposited data

How the results depend on the processing

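No value carried a test, so a result counts as moved when it changed by more than 1 SD between libraries, or a count by more than 1.5 times. Depth limits the lowest genes: 23 of the 50 had under 100 counts in replicate 2. The same share over all protein-coding genes is not given here. The unit decides most levels. In read-based TPM, 18 of the 50 genes were at the limit, 3 had a mean of 10 TPM or more and the median was 1.43 TPM. There the median TPM of the roles was 6.27 for kinases, 2.37 for D- and E-type cyclins, 8.44 for inhibitors and Rb1, 0.405 for mitosis, 1.66 for proliferation markers, 1.53 for fork and nucleotide genes, 2.03 for licensing genes and 0.877 for transcription factors. Genes at the limit were then 1 for mitosis, 0 for proliferation markers, 2 for fork and nucleotide genes and 3 for licensing genes. In TPM rescaled to protein-coding genes, the median was 7.73, and 23 genes had 10 or more. The role medians were 32.2 for kinases, 14.4 for D- and E-type cyclins, 49.6 for inhibitors and Rb1, 1.68 for mitosis, 1.67 for A- and B-type cyclins, 9.76 for proliferation markers, 6.32 for fork and nucleotide genes, 12.3 for licensing genes and 5.46 for transcription factors, with 7 mitosis genes and 1 A- or B-type cyclin at the limit. Read-based TPM rescaled in the same way, an alternative added after seeing the data, gave 40 genes at the limit, a median of 8.23 and 22 genes at 10 or more. The role medians were 36.6 for kinases, 15.5 for D- and E-type cyclins, 48.6 for inhibitors and Rb1, 2.19 for mitosis, 1.77 for A- and B-type cyclins, 9.69 for proliferation markers, 8.54 for fork and nucleotide genes, 11.5 for licensing genes and 5.56 for transcription factors, again with 7 mitosis genes and 1 A- or B-type cyclin at the limit. In these 2 rescaled units, 7 of 14 mitosis genes at the limit stand beside 46.4% and 47.1% of protein-coding genes, which is near the background. Rescaling multiplies every level of a library by 1 factor, so the shifts under it follow from its construction. The cause of the read-based shifts was not tested beyond the share of protein-coding TPM given above. Posterior mean TPM gave medians of 8.59 for D- and E-type cyclins, 0.762 for mitosis and 2.53 for fork and nucleotide genes, and put 1 A- or B-type cyclin at the limit. Without retained-intron transcripts, also added after seeing the data, fork and nucleotide genes had a median of 1.85 TPM and 2 at the limit. Over the 34 genes whose mean TPM was 1 or more, the median was 5.45 TPM. Limits of 0.5 and 2 TPM left 37 and 25 of the 50 genes, against 45.2% and 37.4% of protein-coding genes. Leaving out 1 library put 0 to 1 A- or B-type cyclin at the limit, the 1 without replicate 1. In TPM as deposited, the median difference of the 34 genes was -0.35 in replicate 1 and 0.49 in replicate 2, where all genes moved too. Of 33 differences by library, for each role, all members and all protein-coding genes, 18 moved there, 7 under TMM, 6 under median-of-ratios factors, 4 with no limit on mean TPM and 1 with read-based counts. TMM put the median of all protein-coding genes at -0.05 in replicate 1 and 0.04 in replicate 3, and that of the 34 genes in replicate 1 at -0.12. It also moved mitosis to -0.15 in replicate 1 and 0.02 in replicate 3, the inhibitors and Rb1 to -0.06 in replicate 1, and the transcription factors to about 0 in replicate 1 and 0.02 in replicate 3. Median-of-ratios factors moved the same roles and libraries, apart from the transcription factors in replicate 3. With no limit on mean TPM, the median of all protein-coding genes was 0, and mitosis had 0.36 in replicate 1 and -0.46 in replicate 3, and A- and B-type cyclins 0.69 in replicate 1. Read-based counts put fork and nucleotide genes at -0.65 in replicate 3. The licensing genes moved under none of the 6 alternatives of scale, offset and filter, and their median in replicate 2 was between 0.38 and 0.67. The SD used here is that of a role's own medians in the 3 libraries. A role with large differences is therefore less apt to count as moved, so this does not show that the difference is stable. The 6 alternatives include TPM as deposited, where the median of all protein-coding genes rose in replicate 2 too. The median share of the leading transcript was 81.3% in the read-based table and 86.8% to 89.3% with 1 library left out.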
